A study of Mus musculus with 30 samples.

Results

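The core machinery that copies DNA was followed through mouse heart development at the level of its transcripts. It was represented by 39 genes chosen by name: the 6 subunits of the MCM helicase (Mcm2 to Mcm7), the 6 subunits of the origin recognition complex (Orc1 to Orc6), the loading and activation factors Cdc6, Cdt1, Mcm10 and Cdc45, the 4 GINS subunits, subunits of the replicative polymerases (Pola1, Pola2, Prim1, Prim2, Pold1, Pold2, Pole and Pole2), the sliding clamp Pcna with its loader Rfc1 to Rfc5, the single-strand binding proteins Rpa1 to Rpa3, and the Okazaki fragment enzymes Fen1 and Lig1. All 39 had 1 row among the 48820 genes of the table, matched by gene identifier to GENCODE M21 symbols on GRCm38. They lay on 13 chromosomes, with at most 7 of them on the same one. Poly(A)-selected RNA was sequenced from whole hearts of untreated wild-type mice of 10 ages, each with 3 libraries. The embryonic ages ran from E10.5 to E18.5 in steps of 2 days, followed by postnatal day 1 (P1) and by 1, 2, 4 and 8 weeks after birth (1W to 8W). The labels give no strain, sex or number of animals per library. They do not call the libraries separate animals, and the p-values therefore reflect only the spread between these libraries, which may be in part technical.

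Before a cell enters S phase, the origin recognition complex binds DNA and, with CDC6 and CDT1, loads the MCM ring onto it in an inactive form, a step called licensing. In S phase, CDC45 and GINS join the ring to make the active helicase, with MCM10 needed for its activation. Polymerase alpha-primase lays down primers, RFC opens the PCNA ring and closes it around the DNA, polymerase epsilon extends the leading strand and polymerase delta the lagging strand, RPA coats the exposed single strands, and FEN1 and LIG1 trim and join the Okazaki fragments. Many of these genes are textbook targets of E2F transcription factors. In the mouse, heart muscle cells divide before birth, and most stop dividing within the first weeks after it. In whole-heart RNA, fewer cells of a type and less RNA per cell cannot be told apart.

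Library totals lay between 23164934 and 50519452 counts. Levels are given in CPM, counts scaled to a common library total with TMM factors, and log2 changes as value ± standard error from edgeR's quasi-likelihood test, in which a change counts as passed at a Benjamini-Hochberg adjusted p under 0.05 over 19280 genes. All 39 genes passed the filter on low counts. The summed level of 8 heart muscle markers was between 17400 and 36600 CPM at E10.5 and between 205000 and 225000 CPM at 8W, and all 8 were detected at every age. Markers of other cells moved too, and their part in the results below was not tested. Sex-linked transcripts, given before TMM scaling, were unequal between the ages. In the P1 libraries Xist was between 1.3 and 1.84 CPM and the summed level of Y-linked genes between 168 and 183 CPM. In the 4W and 8W libraries the Y-linked sum was 0. Xist was between 287 and 323 CPM at 4W and between 122 and 154 CPM at 8W. In 8W against P1, age and sex therefore cannot be told apart. The non-coding RNA Rn7sk was at 5666.5 CPM or more in every library before TMM scaling, and the non-coding RNA Rpph1 at 1437.4 CPM or more. The poly(A) selection of the RNA was not checked against these levels. E10.5 replicate 2 held 32231 CPM of Rn7sk before TMM scaling, against 6112.9 and 5666.5 CPM in its companions, and it was the highest of the 3 for 25 of the 39 genes. Without it Rpa3 in E18.5 against E10.5 changed by -1.85 in place of -2.27, Rfc4 in E18.5 against E10.5 by -1.51 in place of -1.83 and Pole2 in E18.5 against E10.5 by -1.27 in place of -1.47, and all 3 still passed.

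The summed level of the 39 genes was 2150, 2530 and 2230 CPM in the 3 libraries of E10.5, and 1540, 1410 and 1370 CPM at E18.5. It was 593, 638 and 779 CPM at P1 and 1050, 1120 and 1150 CPM at 1W. At 2W it was 702, 965 and 517 CPM, at 4W 462, 466 and 453 CPM, and at 8W 505, 506 and 488 CPM. The P1 libraries were thus below those of both neighbouring ages with no overlap, and the 2W libraries were spread over a wider range than those of any other postnatal age. All 39 genes changed across the 10 ages (largest adjusted p = 1e-08), beside 93.6% of all genes tested, so the share of changed genes does not set them apart. Their mean level was highest at E10.5 for 26 genes, at E12.5 for 9, at E16.5 for 3 and at E14.5 for 1. It was lowest at 4W for 17 genes and at 8W for 16, at P1 for Orc2, Pold1, Rfc1 and Rpa1, at 1W for Orc3 and at E16.5 for Orc4.

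**Figure D1:**
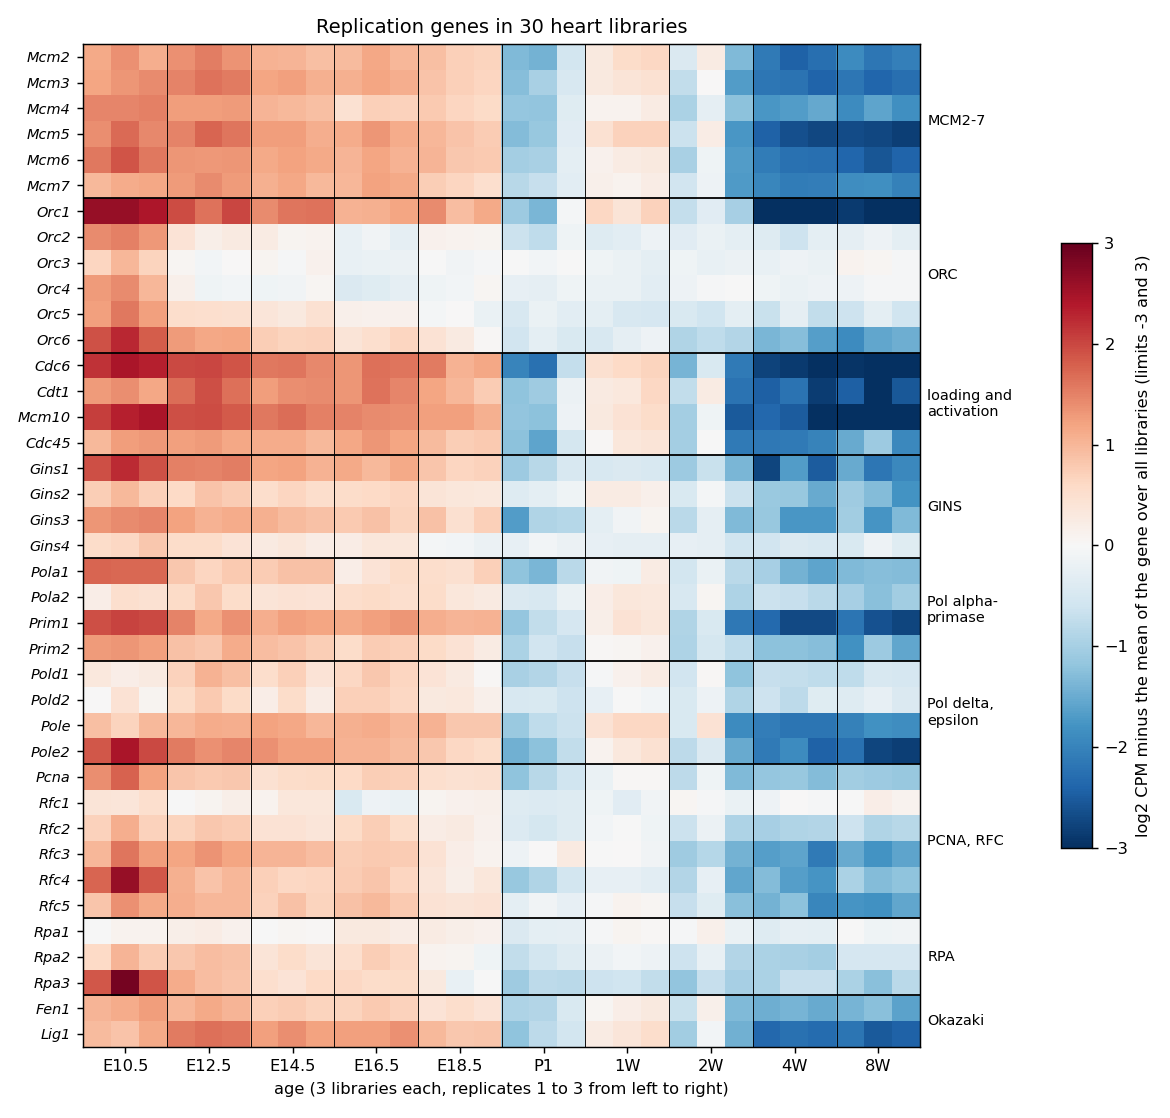
Level of each of the 39 replication genes in the 30 libraries, as log2 CPM minus the mean of that gene over all libraries; rows are grouped by complex and columns by age, 3 libraries each. Most rows are high before birth and low at P1, paler again at 1W and lowest at 4W and 8W, whereas the rows of Orc3, Orc4, Gins4, Pold2, Rfc1 and Rpa1 span a smaller range.

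The fall from E18.5 to P1 was the step at which most of the genes changed together. Of the 39 genes, 34 fell and 0 rose, with a median log2 change of -1.2, beside 19% of all genes tested that fell, 19.8% that rose and a median of -0.01 over all genes. From P1 to 1W, 28 rose and 0 fell (median 0.8), beside 18.8% of all genes that rose and 17% that fell; at an unadjusted p under 0.05, 30 of the 39 changed. Both comparisons use the same P1 libraries, so they are not independent of each other. From 1W to 2W 30 fell and 0 rose (median -0.67), beside 14.1% and 15.5% of all genes, and from 2W to 4W 29 fell and 0 rose (median -0.81), beside 13% and 15.8%. With only the 6 libraries of each comparison in the fit, the 2W count was 12 and the 4W count 18. From 4W to 8W 0 fell and 3 rose, beside 12.1% and 11.8%.

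**Figure D2:**
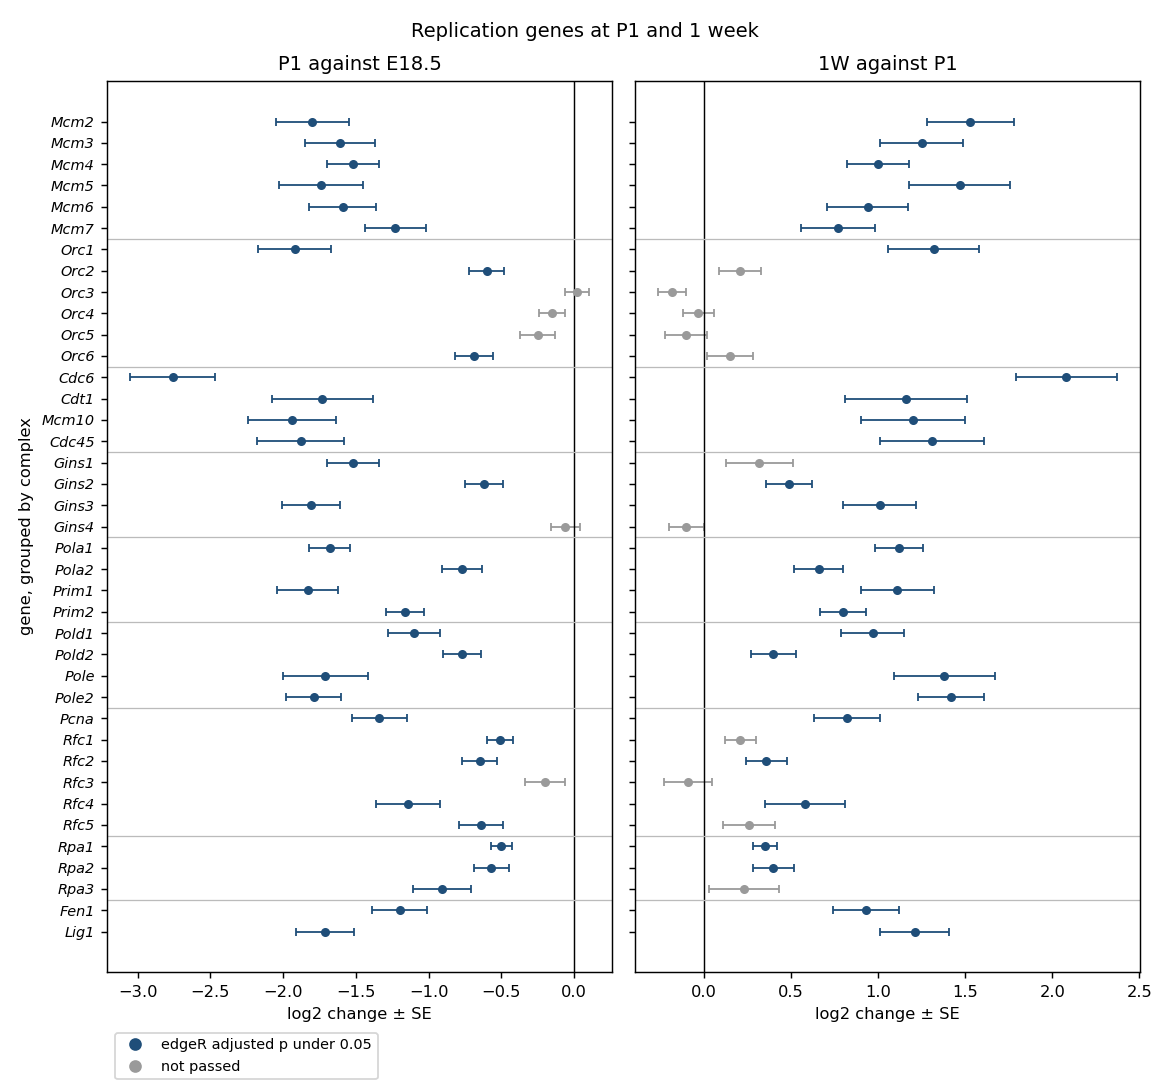
Log2 change of each replication gene from E18.5 to P1 (left) and from P1 to 1W (right), with bars for the standard error, from edgeR's quasi-likelihood fit to all 30 libraries; dark points passed an adjusted p under 0.05. On the left 34 of 39 points are dark and below 0, and on the right 28 are dark and above 0; both panels use the 3 P1 libraries.

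Values of other genes moved with the genes at these ages. The summed level of 6 neutrophil markers was between 15.5 and 21.5 CPM in the P1 libraries, against 1.75 to 3.3 CPM at E18.5 and 5.68 to 8.21 CPM at 1W. The summed level of 7 erythroid markers was between 173 and 192 CPM at P1, 372 and 521 CPM at 1W, and 799 and 1150 CPM at 2W, and of 6 fibroblast markers between 2380 and 3060 CPM at P1 and 3750 and 3820 CPM at 1W. Their part in the change of the replication genes was not tested. Within P1, replicate 3 was the highest library for 30 of the 39 genes. Within 2W, replicate 2 was the highest for 34 and replicate 3 the lowest for 32. The proliferation marker Mki67 was at 97.1, 142 and 28.8 CPM in the 3 libraries of 2W, in the same order, and the share of counts from mitochondrially encoded genes lay between 13.6% and 16.8% there. Leaving out P1 replicate 3 and 2W replicate 3 together, a choice made after seeing the data, moved none of the counts at P1, 1W, 2W or 4W by more than 1.5 times.

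Promoter sequences of 32 of the 39 genes were found in RefSeq's GRCm38.p6 annotation, as windows from 250 bases before the transcription start to 50 after it; Mcm4, Gins1, Gins2, Gins4, Prim2, Pole and Rfc2 had no entry. Each window was searched on both strands for 4 spellings of the E2F motif, TTTCCCGC, TTTGGCGC, TTTCGCGC and TTTGCCGC, some of which can overlap each other. At least 1 of them was present for 14 of the 32 genes (43.8%), beside 2.6% of 27025 genes with a window of the same length; the 14 were Mcm3, Mcm5, Mcm6, Mcm7, Orc1, Orc3, Cdc6, Cdt1, Gins3, Pola1, Pold1, Pole2, Rfc3 and Lig1. The CCAAT box was present for 21 of the 32 (65.6%, beside 41.1% of all genes), and the CHR motif TTTGAA for 5 (15.6%, beside 20.2%). A match says only that these letters are in the window. Of the 14 genes with an E2F motif 12 fell at P1, and of the 18 without 16 fell, so the counts did not separate the genes by motif. The windows of 5 genes are shown because they span the range of change at P1: Cdc6, the gene with the deepest fall, Mcm5, Mcm6 and Orc1, and Orc3, which has a motif and did not pass. The windows use RefSeq starts, which can differ from those of GENCODE M21. In GENCODE M21 Cdc6 starts at 98907801, before its window, and Mcm5 at 75109569, after its window. Capitals mark the E2F motifs, and each sequence runs 5′ to 3′ on the strand of the gene.
Mcm5, chr8:75109259-75109558, plus strand: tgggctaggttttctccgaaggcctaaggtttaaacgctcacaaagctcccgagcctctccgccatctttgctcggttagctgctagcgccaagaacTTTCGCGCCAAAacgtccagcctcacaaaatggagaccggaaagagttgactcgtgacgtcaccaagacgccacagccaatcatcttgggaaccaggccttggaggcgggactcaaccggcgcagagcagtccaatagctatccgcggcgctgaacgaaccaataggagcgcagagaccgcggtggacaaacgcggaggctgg
Mcm6, chr1:128359656-128359955, minus strand: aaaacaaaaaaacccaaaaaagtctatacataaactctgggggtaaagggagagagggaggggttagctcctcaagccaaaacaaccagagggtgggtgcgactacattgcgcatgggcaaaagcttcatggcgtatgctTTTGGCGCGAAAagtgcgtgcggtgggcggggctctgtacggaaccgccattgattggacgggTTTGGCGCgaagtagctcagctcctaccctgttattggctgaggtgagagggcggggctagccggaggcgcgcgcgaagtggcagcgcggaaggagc
Cdc6, chr11:98907901-98908200, plus strand: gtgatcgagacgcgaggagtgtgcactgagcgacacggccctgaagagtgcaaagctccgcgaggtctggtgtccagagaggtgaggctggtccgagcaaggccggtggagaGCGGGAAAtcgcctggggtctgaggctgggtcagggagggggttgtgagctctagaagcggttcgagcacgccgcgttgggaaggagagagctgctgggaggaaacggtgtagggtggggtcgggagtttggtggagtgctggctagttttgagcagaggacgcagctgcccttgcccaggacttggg
Orc1, chr4:108579204-108579503, plus strand: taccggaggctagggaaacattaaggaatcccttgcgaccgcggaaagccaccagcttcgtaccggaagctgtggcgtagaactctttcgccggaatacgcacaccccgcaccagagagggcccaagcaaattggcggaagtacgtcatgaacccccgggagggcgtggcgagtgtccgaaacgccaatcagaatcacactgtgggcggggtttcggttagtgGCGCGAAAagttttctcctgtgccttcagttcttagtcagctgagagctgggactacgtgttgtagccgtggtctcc
Orc3, chr4:34614893-34615192, minus strand: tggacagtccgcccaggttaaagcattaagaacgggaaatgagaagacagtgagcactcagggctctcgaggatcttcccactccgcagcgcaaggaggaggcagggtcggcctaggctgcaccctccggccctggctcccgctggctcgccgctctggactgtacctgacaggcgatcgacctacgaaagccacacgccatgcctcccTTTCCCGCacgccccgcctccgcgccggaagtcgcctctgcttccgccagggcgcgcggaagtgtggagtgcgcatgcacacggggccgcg

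The MCM genes, which encode the ring-shaped helicase that unwinds the DNA, moved together from E18.5 on. Mcm2 was at 107, 93.6 and 89.9 CPM in the 3 libraries of E18.5 and at 22.8, 21.4 and 39.1 CPM in those of P1. In the 1W libraries it was at 69.3, 83.3 and 87.3 CPM. The P1 libraries were below all libraries of E18.5 and 1W, and replicate 3 was the highest of them. Its log2 change was -1.8 ± 0.25 from E18.5 to P1 (adjusted p = 7.5e-06) and 1.53 ± 0.25 from P1 to 1W (adjusted p = 6.4e-05).

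Mcm5, which carries 2 overlapping E2F motifs in the window above, was at 78.3, 71 and 65.8 CPM at E18.5 and at 15.8, 17.7 and 30.8 CPM at P1. At 1W it was at 53.2, 62.5 and 62.8 CPM, and the 3 ages did not overlap. Its change was -1.74 ± 0.29 and then 1.47 ± 0.29. The other 4 fell at P1 by between 1.23 (Mcm7) and 1.61 (Mcm3) on the log2 scale and rose at 1W by between 0.77 (Mcm7) and 1.25 (Mcm3), so that all 6 fell and all 6 rose. By 8W Mcm5 was at 6.01, 5.82 and 5.42 CPM and had changed by -4.28 ± 0.34 from E10.5, and the other 5 by between -3 (Mcm7) and -4.14 (Mcm6). Before birth the MCM genes moved less: 0 of 6 passed from E10.5 to E12.5, and from E10.5 to E18.5 4 of 6 fell, of which the calls of Mcm3 and Mcm5 were lost under 6 and 27 of 40 alternatives (adjusted p up to 0.096 and 0.13).

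**Figure D3:**
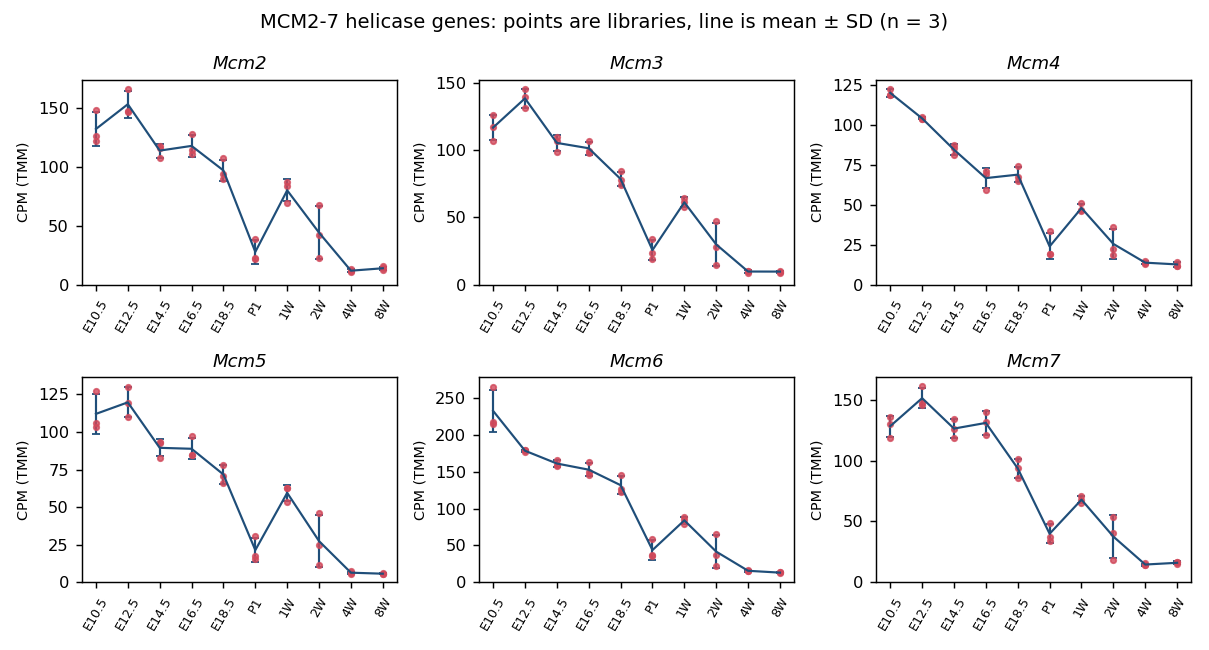
TMM-scaled CPM of the 6 MCM helicase genes by age; points are libraries and the line joins the mean of 3, with bars for 1 SD. In all 6 panels the 3 P1 libraries lie below the 3 libraries of E18.5 and the 3 of 1W, and the 2W libraries are widely spread.

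Per kilobase of exon the 6 MCM genes lay within a narrow range. At E10.5 the lowest was Mcm2 with 19 CPM per kb and the highest Mcm6 with 49.8 CPM per kb, a 2.62-fold range, and at 1W the same genes were at 11.5 and 18 CPM per kb, a 1.57-fold range. At 8W the lowest was Mcm5 (1.44 CPM per kb) and the highest Mcm7 (3.63 CPM per kb). Mcm7 hosts 3 microRNA genes (Mir25, Mir93 and Mir106b), which had a mean count of 0.

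Of the 6 genes of the origin recognition complex, only Orc1 both fell at P1 and rose at 1W, as all 6 MCM genes did. Orc1 encodes the subunit whose ATPase works with CDC6 in loading the helicase. It was at 4.5, 3.19 and 3.75 CPM at E18.5, at 0.758, 0.615 and 1.61 CPM at P1, and at 2.57, 2.21 and 2.71 CPM at 1W. The P1 libraries were below both neighbours, with a change of -1.92 ± 0.25 (adjusted p = 2.7e-07) and then of 1.32 ± 0.26 (adjusted p = 0.00012). At 4W each library held 3 counts of Orc1, and at 8W they held 4, 3 and 0, 7 counts in all, with an exact Poisson interval of 2.81 to 14.4 that covers counting error only. From E10.5 to 8W the change was -6.65 ± 0.36, the largest of the 39, and at so few counts its size rests on 7 counts.

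Orc3, which forms a tight pair with Orc2 in the complex, was at 40.8, 38.6 and 40 CPM at E18.5, at 41.2, 39.2 and 41.1 CPM at P1, and at 37.6, 36.2 and 33.5 CPM at 1W. The first of these pairs of ages overlapped, and the changes did not pass (0.02 ± 0.08 and -0.18 ± 0.08). Orc4 and Orc5, both of the ATPase family of the complex, did not pass at P1 either (-0.15 ± 0.09 and -0.25 ± 0.12), although both were called with library size alone (adjusted p = 0.018 and 0.0096). Orc2 fell by 0.6 at P1 and was at 10.2, 9.46 and 14.6 CPM there, with replicate 3 the highest. Orc6, the smallest subunit and the least conserved, fell by 0.69. From P1 to 1W the changes of Orc2 and Orc6 did not pass (0.21 ± 0.12 and 0.15 ± 0.13).

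The early course of the complex was unlike that of the helicase. All 6 Orc genes fell from E10.5 to E12.5, by between 0.68 (Orc1) and 1.26 (Orc4) on the log2 scale, whereas 0 of the 6 MCM genes passed, also at an unadjusted p under 0.05. The MCM genes moved in both directions: Mcm4 and Mcm6 went down (-0.2 ± 0.17 and -0.38 ± 0.22), the rest up, by between 0.1 (Mcm5) and 0.25 (Mcm3). Libraries of E10.5 and E12.5 did not overlap for Mcm3, Mcm4, Mcm6 and Mcm7. Mcm4, Mcm6 and Mcm7 were called under 1, 4 and 2 of 40 alternatives. Over all 39 genes 15 fell and 3 rose, beside 24.4% and 31% of all genes; without 2W replicate 3, 5 rose. Orc4 went from 57, 63.5 and 47 CPM to 26, 21.4 and 22.4 CPM, with no overlap. It was at 21.4, 20.6 and 21.3 CPM at 4W, and after E12.5 it passed only in a fall by 0.31 at E16.5 and a rise of 0.31 at E18.5. The ratio of Orc1 to Orc2 within a library, which scaling does not touch, was -2.1 ± 0.04 (log2, SD, n = 3) at E10.5, -2.19 ± 0.24 at E18.5 and -3.6 ± 0.38 at P1. It was -2.4 ± 0.15 at 1W and -7.38 ± 1.75 at 8W, and it differed between the ages (permutation test, 100000 resamples, adjusted p = 1.7e-05 over 10 pairs). The unadjusted p of this permutation test, 1e-05, was the smallest that 100000 resamples can give. The pairs were chosen with earlier results known, and other gene pairs were not tested beside them. As 93.6% of all genes tested changed across the ages, passing does not by itself set a pair apart. Mcm10 to Mcm7, Pola1 to Prim2 and Pold1 to Pold2 also passed (permutation test, adjusted p = 1.7e-05, 0.0063 and 0.013). The ratio of Orc6 to Orc5 went from 0.18 ± 0.06 at E10.5 to -1.6 ± 0.23 at 8W (permutation test, adjusted p = 1.7e-05).

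Per kilobase of exon, Orc1 was the lowest of the 6 at every age, with 2.88 CPM per kb at E10.5, 0.285 at P1 and 0.0286 at 8W. Orc6 was the highest from E10.5 (19.5 CPM per kb) to E16.5 and Orc3 the highest from E18.5 (6.54 CPM per kb) to 8W (6.98 CPM per kb). Of the exon bases of Orc2, 29.8% overlap the gene Nif3l1 on the other strand, and for Orc1 10.8% overlap Gm12743; since the strand setting of the counting is not given in the sources used here, reads of such pairs may have been split between them and these levels are uncertain.

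**Figure D4:**
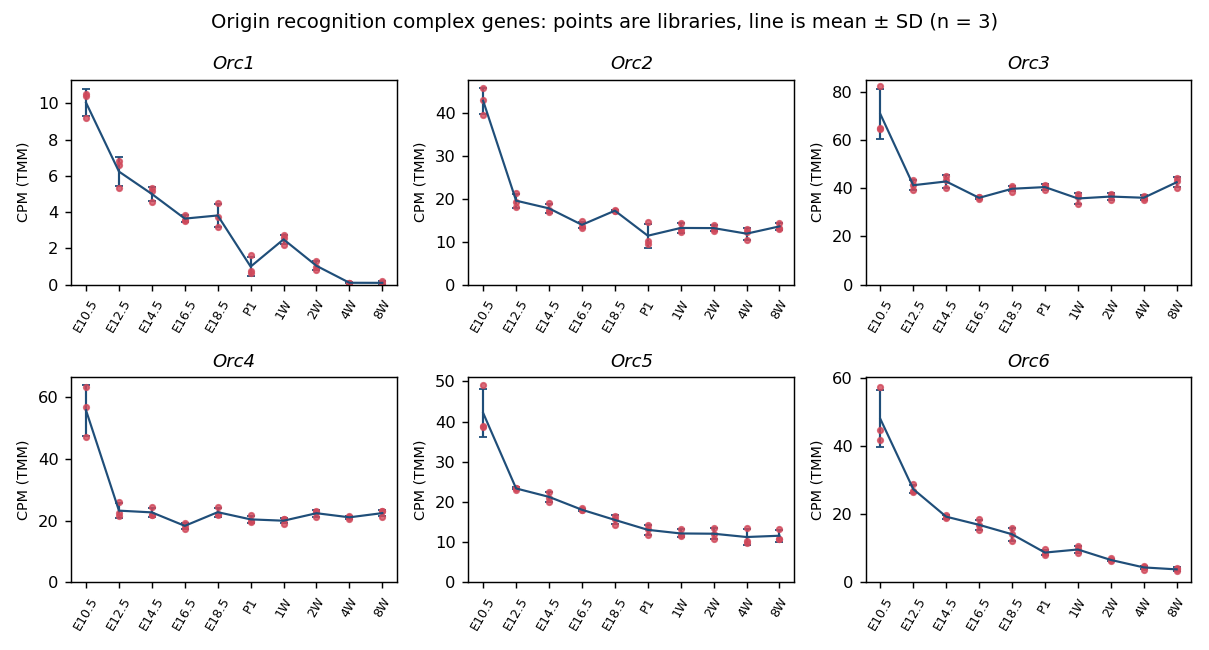
TMM-scaled CPM of the 6 origin recognition complex genes by age; points are libraries and the line joins the mean of 3, with bars for 1 SD. All 6 genes drop between E10.5 and E12.5. The means of Orc3 and Orc4 at 8W (42.5 and 22.5 CPM) are close to those of E14.5 (42.8 and 22.7 CPM). Those of Orc2 and Orc5 are lower at 8W than at E14.5, and Orc1 dips at P1 and is close to 0 at 4W and 8W.

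The loading and activation factors had the deepest dips. Cdc6 loads the helicase together with the origin recognition complex. It was at 24.2, 17 and 18.3 CPM at E18.5, at 2.04, 1.71 and 4.98 CPM at P1 and at 11.5, 12.5 and 13 CPM at 1W. There was no overlap, and the log2 changes of -2.76 ± 0.29 (adjusted p = 1.2e-07) and 2.08 ± 0.29 (adjusted p = 7e-06) were the largest among the 39 in each step. By 8W it was down to 22, 21 and 19 counts per library, or 1.02, 0.794 and 0.758 CPM.

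Cdt1, which brings the helicase to the origin, was at 21.7, 19 and 16.3 CPM at E18.5 and at 4.12, 4.54 and 8.48 CPM at P1. It fell by 1.73 ± 0.35 and rose at 1W by 1.16 ± 0.35; the second call was lost without P1 replicate 1 or 2 (adjusted p up to 0.07). The ratio of Cdc6 to Cdt1 within a library was 0.82 ± 0.13 at E10.5 and 0.06 ± 0.19 at E18.5. It went to -1.06 ± 0.32 at P1 and to -0.04 ± 0.12 at 1W (permutation test, adjusted p = 0.00017). Mcm10, needed to activate the helicase, and Cdc45, part of the active helicase, fell by 1.94 and 1.88 at P1 and rose by 1.2 and 1.31 at 1W. From P1 to 8W Mcm10 fell by 3.41 ± 0.49, to 5, 10 and 14 counts, whereas Cdc45 was at 4.35, 5.86 and 3.27 CPM at 8W and did not pass (-0.43 ± 0.33).

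The 4 GINS genes encode the subunits of a helicase cofactor, and their transcripts took separate courses. Gins1 was at 7.11, 6.15 and 6.35 CPM at E18.5, at 1.81, 2.19 and 2.83 CPM at P1 and at 2.81, 2.92 and 2.82 CPM at 1W. It fell by 1.52 ± 0.18 at P1, and its 1W level overlapped that of P1 and did not pass (0.32 ± 0.19). Gins3 fell by 1.81 ± 0.2 and rose at 1W by 1.01 ± 0.21. Gins4 was at 15.7, 15.3 and 14.5 CPM at E18.5 and at 13.7, 15.4 and 14.4 CPM at P1, which overlapped (-0.06 ± 0.1), and it was at 11.8, 14.6 and 12.6 CPM at 8W. The ratio of Gins1 to Gins4 within a library was -0.67 ± 0.26 at E10.5, -1.21 ± 0.09 at E18.5, -2.69 ± 0.3 at P1 and -3.62 ± 0.49 at 8W (permutation test, adjusted p = 1.7e-05). Gins2 fell by 0.62 ± 0.13 at P1 and rose by 0.49 ± 0.13 at 1W, but 67.3% of its exon bases overlap Gse1 on the other strand, so its level is uncertain.

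Polymerase alpha-primase starts each new strand. Its catalytic subunit Pola1 was at 28.4, 27.4 and 32.2 CPM at E18.5, at 8.47, 7.65 and 11.2 CPM at P1, and at 18.4, 18 and 23.3 CPM at 1W, with no overlap (-1.68 ± 0.14 and 1.12 ± 0.14). Pola1 lies on the X chromosome (GRCm38 X, 93304767 to 93632155), and the P1 libraries had the sex-linked levels given above, whose part in its change was not tested. Prim1, the catalytic primase subunit, fell by 1.83 ± 0.21 and rose by 1.11 ± 0.21, and Prim2, the large primase subunit, fell by 1.16 ± 0.13 and rose by 0.8 ± 0.13. Pola2, the accessory subunit, fell by 0.77 ± 0.14 and rose by 0.66 ± 0.14, to 21.2, 23.5 and 23 CPM at 1W, beside 27.2, 23.6 and 22.2 CPM at E18.5. All 4 fell at P1 and all 4 rose at 1W. Over the whole span Prim1 fell by 4.52 and Pola2 by 1.5.

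The elongating polymerases held some of the least and some of the most variable genes. Pole, the catalytic subunit of polymerase epsilon, was at 66.4, 56.1 and 56.2 CPM at E18.5, at 14.9, 18.9 and 20.6 CPM at P1 and at 43.5, 49.4 and 49.3 CPM at 1W (-1.71 ± 0.29 and 1.38 ± 0.29). Its mean was highest at E14.5, and from E10.5 to E18.5 it did not pass (0.04 ± 0.28). Pole2, its accessory subunit, fell by 1.47 ± 0.17 over those embryonic ages, by 1.79 ± 0.19 at P1, and rose by 1.42 ± 0.19 at 1W. The ratio of Pole2 to Pole was -1.3 ± 0.46 at E10.5 and -2.79 ± 0.04 at E18.5 (permutation test across all ages, adjusted p = 5.7e-05), and -2.89 ± 0.2 at P1. Of the E10.5 libraries, replicate 2 was the highest for Pole2 (19.8, 29.8 and 21.5 CPM) and the lowest for Pole (60.1, 50.8 and 62.5 CPM).

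Pold1 and Pold2, the catalytic and an accessory subunit of polymerase delta, rose from E10.5 to E12.5 (0.63 ± 0.17 and 0.47 ± 0.13), as did Lig1 (0.61 ± 0.19); these 3 were the only ones of the 39 that passed upward in that step. At P1 they fell by 1.1 and 0.77. Pold1 was at 14.2, 17.2 and 17.1 CPM at 8W and at 12.2, 13 and 15 CPM at P1, which overlapped (0.27 ± 0.18). Over the whole span they fell by 0.83 and 0.54, so that polymerase delta ended with levels closer to those of E10.5 than Pole2, which fell by 4.79.

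Pcna, the clamp that holds polymerases on DNA, was at 89.3, 87.2 and 87.5 CPM at E18.5, at 27.4, 35.4 and 41.7 CPM at P1 and at 54.9, 65.1 and 64.3 CPM at 1W, with no overlap (-1.34 ± 0.19 and 0.82 ± 0.19). It had the highest level per kilobase of the 39 at E10.5, 73.2 CPM per kb. From P1 to 8W it did not pass (-0.23 ± 0.19), with 30.6, 29.7 and 28.6 CPM at 8W.

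The clamp loader genes were unequal. Rfc1, the large subunit found only in the canonical loader, was at 52.1, 53.8 and 54.6 CPM at E18.5, at 37.8, 37.2 and 37.6 CPM at P1 and at 49.2, 56.4 and 53 CPM at 8W. It fell at P1 by 0.51 ± 0.09 and rose by 0.49 ± 0.09 from P1 to 8W, a direction that turned with library size alone (Rfc1 in 8W against P1, -0.28). Rfc2 to Rfc5 are small subunits that the alternative loaders also use. Rfc3 was at 15.4, 13.1 and 12.2 CPM at E18.5 and at 10.2, 11.5 and 13.7 CPM at P1, which overlapped (-0.2 ± 0.14), and it fell from P1 to 8W by 1.69 ± 0.16. Rfc4 fell by 1.14 ± 0.22 at P1, and its rise at 1W (0.58 ± 0.23, adjusted p = 0.047) was lost under 27 of 40 alternatives. Rfc2 and Rfc5 fell by 0.65 and 0.64 at P1; the rise of Rfc2 at 1W (0.36 ± 0.12) was lost under 3 of 40 alternatives, and that of Rfc5 did not pass (0.26 ± 0.15). These 3 levels are uncertain too, since 12.7% of the exon bases of Rfc4 overlap Eif4a2 on the other strand, which had a mean count of 8339 against 566.5 for Rfc4, and 15.1% of those of Rfc2 overlap Lat2 and 10.7% of those of Rfc5 overlap Wsb2. The ratio of Rfc3 to Rfc1 was -1.24 ± 0.34 at E10.5, -1.98 ± 0.21 at E18.5, -1.68 ± 0.21 at P1 and -3.85 ± 0.25 at 8W (permutation test, adjusted p = 1.7e-05).

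RPA coats single-stranded DNA in replication and also in repair, and all 3 of its genes fell at P1, with a median of -0.57. Rpa1, the large subunit with the main DNA-binding domains, was at 116, 109 and 106 CPM at E18.5, at 72.4, 79.9 and 80.9 CPM at P1 and at 95.9, 89 and 90.5 CPM at 8W. It fell by 0.5 ± 0.07 at P1 and was the only one of the 39 that did not pass from E10.5 to 8W (-0.15 ± 0.07), a call that 17 alternatives made. Rpa2, the middle subunit, fell by 0.57 ± 0.12 at P1, and Rpa3, the smallest, by 0.91 ± 0.2. Rpa3 was at 26, 53 and 26.6 CPM at E10.5, where replicate 2 stood apart, and at 15.4, 13.7 and 12.9 CPM at E12.5; it fell over the whole span by 3.3 ± 0.2. The ratio of Rpa2 to Rpa1 was -1.36 ± 0.17 at E10.5, -2.24 ± 0.09 at E18.5 and -2.51 ± 0.07 at 8W (permutation test, adjusted p = 1.7e-05).

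Of the Okazaki fragment enzymes, Lig1, which seals the nicks, was at 47.3, 42.1 and 42.6 CPM at E18.5, at 10.3, 13.9 and 16.2 CPM at P1 and at 28.2, 30.6 and 34.3 CPM at 1W, with no overlap (-1.71 ± 0.2 and 1.21 ± 0.2). Fen1, the flap nuclease, fell by 1.2 ± 0.19 and rose by 0.93 ± 0.19, but 78.8% of its exon bases overlap the antisense gene Gm10143, so its level is uncertain.

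**Figure D5:**
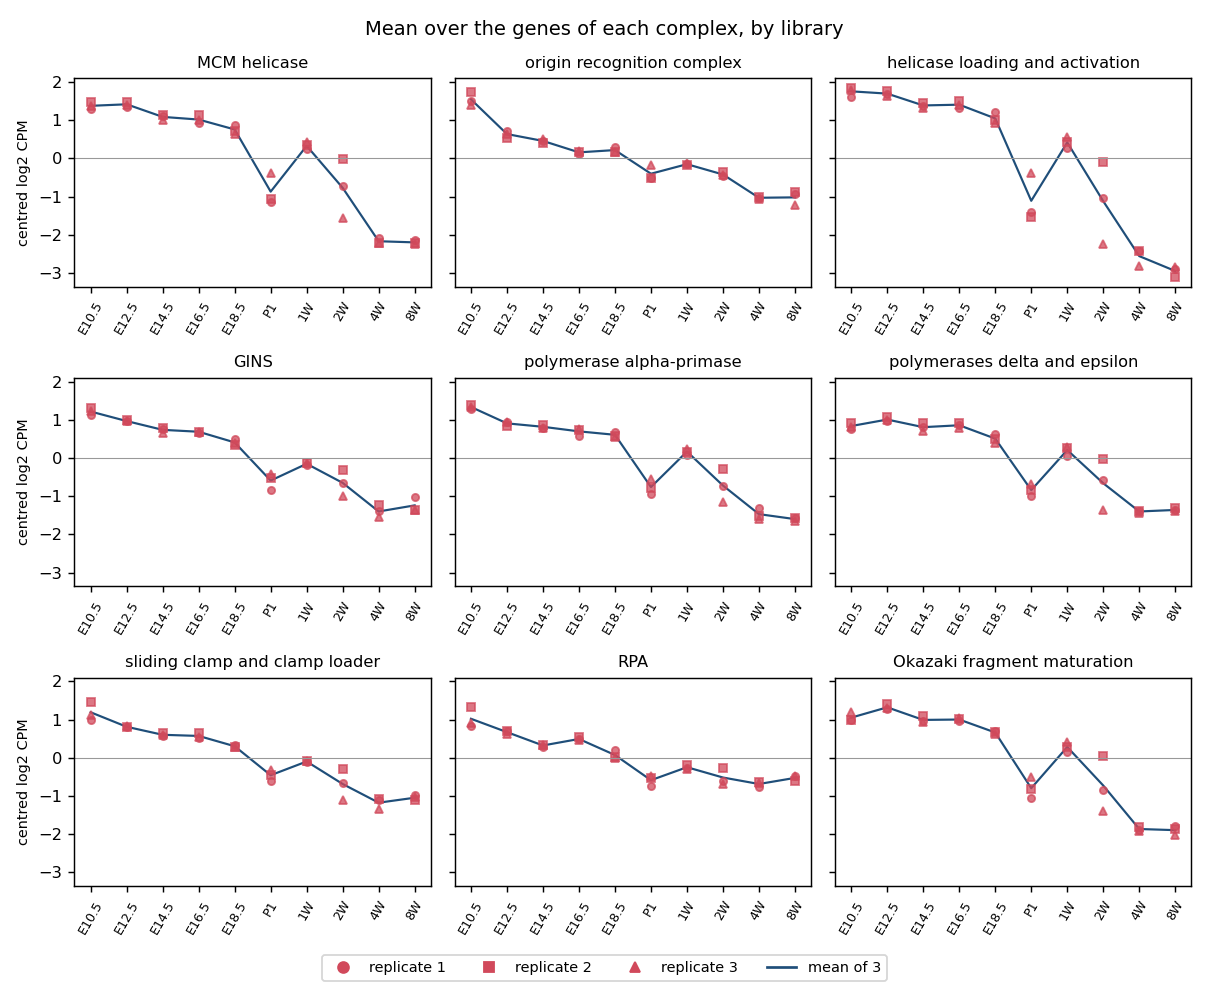
Mean over the genes of each complex of log2 CPM minus the gene's mean over all libraries, by age; points are libraries, marked by replicate number, and the line joins the mean of 3. The MCM panel goes from 0.76 at E18.5 to -0.87 at P1 and 0.33 at 1W, and the 3 libraries of 2W are spread between -0.01 and -1.56.

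The complexes differed in how far they dipped. Averaged over its genes, with each gene centred on its mean over all libraries, the MCM complex was at 1.38 ± 0.09 (log2, SD, n = 3) at E10.5, 0.76 ± 0.12 at E18.5, -0.87 ± 0.42 at P1 and 0.33 ± 0.09 at 1W. The loading and activation factors went from 1.05 ± 0.15 at E18.5 to -1.11 ± 0.62 at P1 and 0.42 ± 0.14 at 1W, and polymerase alpha-primase from 0.61 ± 0.07 to -0.76 ± 0.19 and 0.17 ± 0.09. The origin recognition complex went from 0.22 ± 0.07 to -0.4 ± 0.18 and -0.15 ± 0.03, and RPA from 0.07 ± 0.12 to -0.59 ± 0.13 and -0.25 ± 0.05. At 4W and 8W the MCM complex was at -2.17 ± 0.08 and -2.2 ± 0.05, RPA at -0.69 ± 0.06 and -0.53 ± 0.08. These averages are descriptions, and the differences between complexes were not tested. Apart from Mcm10 to Mcm7, the gene ratios given above are each between genes of the same group.

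Longer spans framed these steps. From E10.5 to E18.5 29 of the 39 genes fell and 0 rose (median -0.78), beside 30.4% and 32.9% of all genes; the 10 that did not pass were Mcm2, Mcm7, Cdt1, Cdc45, Pola2, Pold1, Pold2, Pole, Rpa1 and Lig1. From P1 to 8W 23 fell and 2 rose (median -0.73), beside 35.1% and 31.8% of all genes and a median of -0.1 over all genes, and the 2 were Rfc1 and Rpa1. With library size alone in place of TMM scaling, the median of all genes moved by -0.77 in this comparison, all 39 fell and 0 rose, and Rfc1 and Rpa1 turned to -0.28 and -0.53. From E10.5 to 8W, a comparison added after seeing the data, 38 fell and 0 rose (median -2.85), beside 42.1% and 37.8% of all genes.

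The levels of 1W were compared with those of E18.5, also after seeing the data, because P1 lay below both. Here 21 of the 39 fell and 0 rose (median -0.37), beside 18.1% and 19.1% of all genes, and the mean of Mcm2 at 1W was 82.5% of that at E18.5, of Cdc6 62.2% and of Gins1 43.6%. The count was unstable: it was between 8 and 13 when any 1 of the 3 E18.5 libraries (9, 11 and 13 without replicates 1, 2 and 3) or the 3 1W libraries (8, 8 and 12) was left out, 13 with no filter, 34 with library size alone and 33 with only the 6 libraries in the fit. Gins1 changed by -1.19 ± 0.17 and Mcm2, which did not pass, by -0.28 ± 0.24.

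The steps within embryonic life after E12.5 were small. From E12.5 to E14.5 3 genes fell (Orc6, Rfc2 and Rpa2) and 0 rose, beside 7.8% and 10.5% of all genes. Without E10.5 replicate 2 or 2W replicate 3 there were 5 that fell, without 2W replicate 2 there were 7, and with only the 6 libraries in the fit 25 fell. From E14.5 to E16.5 5 fell (Orc2, Orc3, Orc4, Pola1 and Rfc1) and 2 rose (Pold2 and Rpa1), beside 12% and 14.1%; without E16.5 replicate 1 there was 1 that fell, and without E14.5 replicate 1 or 3 there were 3. The count of 2 that rose was 0 without E14.5 replicate 1 or E16.5 replicate 2, and 1 without replicate 1 or 3 of E12.5, replicate 3 of E14.5, replicate 1 or 3 of E16.5, E18.5 replicate 1 or 2, P1 replicate 1, 1W replicate 3, 2W replicate 1 or 8W replicate 1. From E16.5 to E18.5 7 fell and 2 rose (Orc4 and Rfc1), beside 11.2% and 13%; without E16.5 replicate 2 there were 3 that fell, without E16.5 replicate 1 or E18.5 replicate 3 there were 4 that fell and 1 that rose, and with only the 6 libraries there were 25 that fell. From 4W to 8W the 3 that rose were Orc3 (0.24 ± 0.08), Rpa1 (0.24 ± 0.07) and Rpa2 (0.47 ± 0.12); without 4W replicate 1 or 8W replicate 1 there was 1.

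Other genes of DNA replication and the cell cycle were counted in lists of 91 genes in all, chosen by function. From E18.5 to P1 72 of the 91 fell and 6 rose, beside 19% and 19.8% of all genes tested, and from P1 to 1W 5 fell and 57 rose, beside 17% and 18.8%. Of 13 genes that control licensing and origin firing, 11 fell at P1 and 0 rose. They included Cdc7, the kinase that triggers the loaded helicase (-2.41 ± 0.22), Wdhd1, which links helicase and polymerase (-1.53 ± 0.17), and Ticrr, which helps CDC45 to join (-1.44 ± 0.27). Gmnn, which encodes geminin, the inhibitor of CDT1, fell at P1 by 0.81 ± 0.2 and was at 11.9, 11.7 and 9.83 CPM there. At 8W it was at 20.2, 20.6 and 21.7 CPM, with no overlap, and it rose by 0.9 ± 0.21 from P1 (adjusted p = 0.00045), while Cdt1 fell by 2.19 ± 0.46; with library size alone the rise of Gmnn did not pass (adjusted p = 0.56).

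Of 10 genes of deoxynucleotide supply 8 fell at P1 and 8 rose at 1W, among them Rrm2, a subunit of ribonucleotide reductase (-1.94 ± 0.38 and 1.4 ± 0.38), and Tyms, thymidylate synthase (-1.52 ± 0.15 and 0.8 ± 0.15). Of 10 genes of chromatin assembly 8 fell and 6 rose, with Uhrf1, which recruits the maintenance DNA methyltransferase, at -2.28 ± 0.39 and 1.61 ± 0.38. Of 12 genes of fork protection and alternative clamp loaders 10 fell and 1 rose at P1; Clspn, a checkpoint mediator, changed by -2.33 ± 0.35 and Pclaf, a PCNA-binding factor, by -2.34 ± 0.27. Of 13 further polymerase subunits, nucleases and topoisomerases 8 fell and 1 rose; Exo1, an exonuclease, changed by -2.34 ± 0.28, Top2a, the topoisomerase of dividing cells, by -2.27 ± 0.33, and Pold4, a small subunit of polymerase delta, rose by 0.75 ± 0.18.

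Of 10 genes of G2 and mitosis all 10 fell at P1 and 6 rose at 1W. Mki67 was at 157, 188 and 198 CPM at E18.5, at 49.3, 56.1 and 67.8 CPM at P1 and at 105, 118 and 137 CPM at 1W, with no overlap (-1.65 ± 0.31 and 1.06 ± 0.31). Of 23 genes of E2F, RB and G1/S control 17 fell and 4 rose at P1, and 3 fell and 13 rose at 1W. E2f1, a transcription factor that activates S phase genes, was at 17.9, 15.8 and 16 CPM at E18.5, at 2.67, 3.65 and 4.37 CPM at P1 and at 9.82, 12.4 and 11.4 CPM at 1W, with no overlap (-2.21 ± 0.33 and 1.65 ± 0.33). From E10.5 to E18.5 it rose by 0.92 ± 0.3, while 29 of the 39 replication genes fell. Ccne2, a cyclin of the G1/S transition, changed at P1 by -3.09 ± 0.29. The 4 that rose at P1 were the inhibitors of cyclin-dependent kinases Cdkn1a (0.72 ± 0.18) and Cdkn1b (0.5 ± 0.08), the RB relative Rbl2 (0.66 ± 0.12) and the E2F partner Tfdp2 (0.91 ± 0.15).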

How the data were processed

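The authors deposited expected counts for each gene in a single table of 30 heart libraries. The submitters' processing notes name STAR 2.5.3a, fastp 0.18.0 and the builds mm10 and GRCm38, with no roles. Which counter, annotation and strand option made the table is not given in the sources used here. Of the values 6.9% were not whole (tolerance 1e-06), and all were rounded. Identifiers were matched without version to GENCODE M21, which gave 48144 of 48820 genes a symbol; genes without one held 0.22% of the counts.

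Libraries were grouped by the age in the labels. edgeR 4.0.16 in R 4.3.3 (filterByExpr, TMM, robust quasi-likelihood fit of 10 age means to all 30 libraries, 20 residual degrees of freedom, Benjamini-Hochberg over 19280 genes) gave changes and standard errors. Level per kilobase is CPM divided by the exon length in GENCODE M21. Ratios of gene pairs were log2 within a library with 0.5 added to each count. DESeq2 1.42.0 and other scalings, filters and sets of libraries were alternatives. The steps were tested on simulated counts. All 39 genes are named. Genes of each other list were drawn from the 3 with the largest change in each of 3 long comparisons, plus Mki67, Top2a, E2f1 and Gmnn. Not all of those drawn are named. Cdkn1a, Cdkn1b, Rbl2, Tfdp2 and Pold4 were named after their values were seen. The members, lists and tests were chosen with earlier results of these data known. Counting intervals cover counting error only.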

Additional observations from a re-analysis of the deposited data

How the results depend on the processing

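All 34 falls from E18.5 to P1 and all 38 from E10.5 to 8W held under the 40 alternatives run for each gene, single libraries left out included. Calls lost under at least 1 alternative were 5 of 28 in 1W against P1, 19 of 30 in 2W against 1W, 12 of 29 in 4W against 2W, 15 of 21 in 1W against E18.5, 4 of 25 in 8W against P1, 2 of 29 in E18.5 against E10.5 and 1 of 18 in E12.5 against E10.5. They were 1 of 3 in E14.5 against E12.5, 6 of 7 in E16.5 against E14.5, 5 of 9 in E18.5 against E16.5 and 2 of 3 in 8W against 4W. Library size alone moved the median of all genes by -1.04 (8W against E10.5), -0.77 (8W against P1), -0.29 (2W against 1W), -0.22 (4W against 2W and 1W against E18.5), -0.16 (E18.5 against E10.5), -0.15 (8W against 4W, E16.5 against E14.5) and -0.11 (1W against P1, P1 against E18.5), and upper quartile factors moved it by -0.27 (8W against E10.5) and -0.19 (8W against P1).

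Library size alone gave, as genes fallen and risen, 39 and 0 in 8W against P1, 12 and 0 in E16.5 against E14.5, 2 and 1 in 8W against 4W, 1 fallen in 1W against P1 and 34 fallen in 1W against E18.5. It turned the sign of Rpa1 in 8W against P1 (-0.53), Pold2 in 8W against P1 (-0.61), Orc2 in 8W against P1 (-0.52), Orc4 in 8W against P1 (-0.64), Rpa2 in 8W against P1 (-0.74), Rfc1 in 8W against P1 (-0.28), Pold1 in 8W against P1 (-0.5), Orc3 in 8W against P1 (-0.7) and Orc3 in 2W against 1W (-0.25). Upper quartile factors gave 1 risen in 8W against P1 and in E16.5 against E14.5, and 1 fallen each in 8W against 4W and 1W against P1. With only the 6 libraries, fallen and risen were 25 and 1 in E14.5 against E12.5, 10 and 4 in E16.5 against E14.5, and 25 and 4 in E18.5 against E16.5; fallen were 12 (2W against 1W), 18 (4W against 2W), 3 (8W against 4W) and 33 (1W against E18.5). DESeq2 gave 5 fallen in E14.5 against E12.5, 1 risen in E16.5 against E14.5 and 1 fallen in 8W against 4W. RLE size factors or no filter gave 1 risen in E16.5 against E14.5, no filter 13 fallen in 1W against E18.5, and 1 CPM in at least 3 libraries 1 fallen in 8W against 4W. Without P1 replicate 3 and 2W replicate 3, there were 4 risen in 8W against P1, 6 risen in E12.5 against E10.5, 12 fallen in E14.5 against E12.5 and in E18.5 against E16.5, and 2 fallen in 8W against 4W. The cause of these shifts was not tested.

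Leaving out each library in turn gave 3 to 5 risen in E12.5 against E10.5, 2 to 7 fallen in E14.5 against E12.5, 1 to 5 fallen and 0 to 2 risen in E16.5 against E14.5, 3 to 10 fallen and 1 to 3 risen in E18.5 against E16.5, 0 to 1 fallen in 1W against P1, 0 to 2 fallen and 1 to 3 risen in 8W against 4W, and 8 to 23 fallen in 1W against E18.5. Libraries with the same replicate number did not in general deviate together (median correlation 0.0077 over 135 pairs, 5.19% of them above 0.1). Such a median cannot show a batch shared by only some ages, and the labels do not say what the numbers mean. A fit with the replicate number as a block moved no count of calls by more than 1.5 times. With 3 libraries per age and counts of Orc1 at 0 to 4 in the adult libraries, depth limits the changes of the lowest genes.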
